A study of Chlorocebus aethiops with 24 samples.

Results

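The genes of alcohol, aldehyde and retinoid metabolism were examined in the hippocampus of young vervet monkeys that had or had not been exposed to ethanol before birth. They were found by gene symbol: alcohol dehydrogenases (ADH), aldehyde dehydrogenases (ALDH), acetyl-coenzyme A synthetases (ACSS), aldo-keto reductases (AKR), cytochromes P450 (CYP), retinol and short-chain dehydrogenases (RDH, DHRS), retinoid carriers (RBP, CRABP) and the nuclear receptors of retinoids (RAR, RXR). The rule found 46 of the 11512 probe sets and 44 gene symbols. ALDH9A1 and RARA have 2 probe sets each and are told apart here as the brighter and the dimmer row.

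Ethanol is oxidized to acetaldehyde by alcohol dehydrogenases, by CYP2E1 and by catalase, acetaldehyde is oxidized to acetate mainly by ALDH2 in mitochondria, and acetate is joined to coenzyme A by the ACSS enzymes. Retinol, or vitamin A, follows a parallel course: retinol dehydrogenases make retinal, enzymes of the ALDH1A group make retinoic acid, cellular binding proteins carry it, and the RAR and RXR receptors respond to it as transcription factors. Because both routes draw on related enzymes, and because retinoic acid patterns the developing brain, competition between ethanol and retinol has long been discussed in prenatal alcohol exposure.

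Left hippocampal RNA of male animals was measured on GeneChip arrays of the rhesus macaque from Affymetrix, each animal on its own array. Animals were killed at 5 months (6 controls and 5 with fetal alcohol spectrum disorder, FASD) or at 2 years (again 6 controls and 5 FASD animals). Dams of FASD animals drank an ethanol solution by choice late in pregnancy, and dams of controls were given sucrose of equal calories. All dams preferred alcohol, and 1 dam could serve in either condition in different breeding cycles, so control and FASD animals may share mothers. The values therefore describe tissue months or years after the exposure. The tissue is a whole hippocampus, in which fewer cells of a type and less RNA per cell cannot be told apart. The probes were designed on rhesus sequence, and a mismatch with the vervet transcript can lower the signal of a probe set, so the rank of a probe set's level among all probe sets, where given, is only a rough guide to the abundance of its transcript.

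Values are log2 expression intensities, on which a difference of 1 is a doubling. FASD minus control, as the mean over both ages, is called the alcohol difference, and 2 years minus 5 months, as the mean over both exposures, the age difference. The interaction is the alcohol difference at 2 years minus that at 5 months. Every p value without another name comes from limma, and adjusted p values are those of Benjamini and Hochberg over all 11512 probe sets. Of 9 genes listed for neurons and glia of the hippocampus, 5 were measured. The neuronal genes NRGN and NEUROD6 had mean levels at or above those of 93.2% and 87.2% of probe sets. The glial genes MBP and GFAP (its brighter probe set) were at 98.2% and 98.3%. The dimmer GFAP probe set was at 40.5%, and PROX1, a marker of granule cells, at 48.1%. These levels were not compared with another tissue. The arrays resembled each other closely, with a mean correlation to the other arrays across genes between 0.979 and 0.991. FASD animal 2 at 5 months stood apart: it held the highest or lowest value of 29.3% of all probe sets and of 16 of the 46 members. Its list mean of mural cell and fibroblast markers was also the highest, 0.99 above the mean of all animals. Of these 5 markers, 3 were highest in this animal. Its list means of oligodendrocyte markers (0.61) and microglia markers (0.39) were the highest too, and that of pyramidal and granule neurons was -0.42. The discarded FASD array of the same age, which has no values here, carries this animal's replicate number in its title. The paper names that array by a different number. Which number is right was not tested. Control animal 6 at 5 months carries a source label of 2 years against its other labels. It held the highest or lowest value of 8 members (17.4%), against 9.76% of all probe sets. FASD animal 6 at 2 years also held 8, against 6.27% of all probe sets. Over the 7 comparisons of the 46 members, 322 differences in all, leaving out FASD animal 2 changed 14 calls at an unadjusted p under 0.05 and leaving out control animal 6 changed 8.

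No member passed an adjusted p of 0.05 for alcohol, for age or for the interaction, by limma. At an unadjusted p under 0.05, 2 of the 46 members were called for alcohol, both lower in FASD animals, against 8.44% of all probe sets, and 6.01% counting only lower ones. For age, 5 members were called, 2 lower and 3 higher at 2 years, against 9.57% of all probe sets, with 4.89% lower and 4.68% higher. For the interaction, 1 member was called, against 3.00% of all probe sets. The members called for alcohol were RDH14 and CYP4V2, those for age were ALDH1A3, AKR1C2, ACSS1, RARB and ALDH18A1, and the one for the interaction was CYP2B6. The members' share of calls was thus 4.35% for alcohol, 10.9% for age and 2.17% for the interaction, which is below the share of all probe sets for alcohol and the interaction and close to it for age. Among all probe sets called for alcohol, 71.2% were lower in FASD animals, and 48.5% were when arrays were centred on their medians.

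The differences were small throughout. For alcohol, 41 of the 46 members differed by less than 0.1 in log2 units and 45 by less than 0.2, the exception being CRABP1. The median alcohol difference was 0.005 over the members and -0.0069 over all probe sets. The age difference was smaller than 0.1 for 32 members and smaller than 0.2 for 42, with a median of 0.0039 over the members and 0.0028 over all probe sets. The 95% interval of the alcohol difference lay within 0.5 on either side of 0 for 45 of the 46 members, so that for these a change by more than that amount falls outside the interval.

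**Figure D1:**
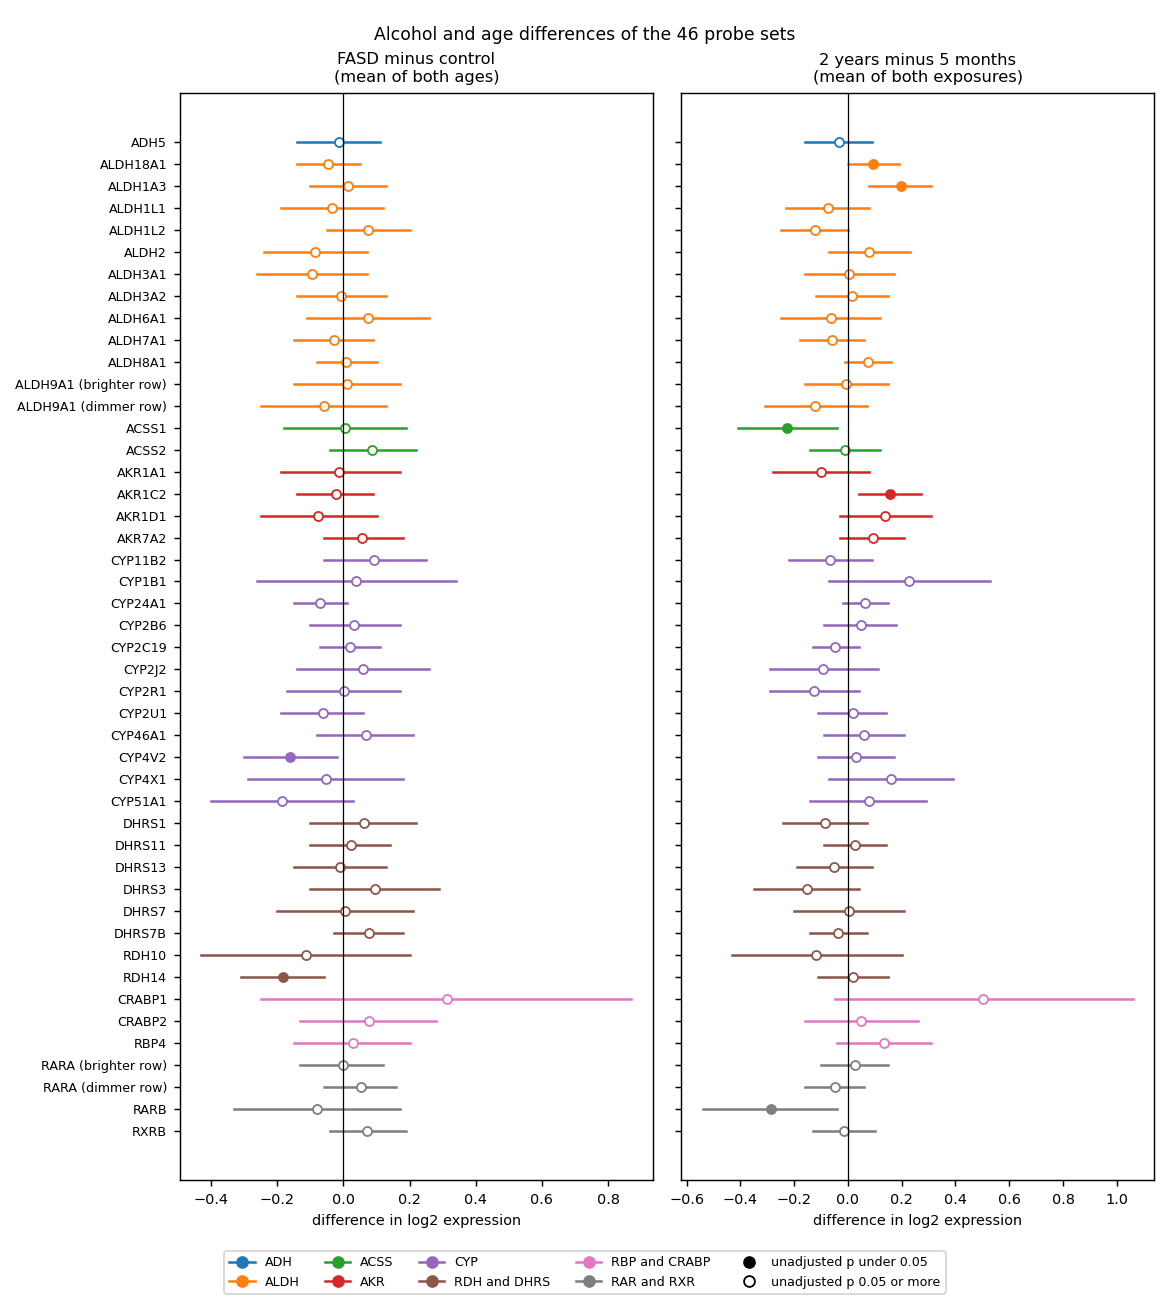
Difference in log2 expression of the 46 probe sets, with FASD minus control on the left and 2 years minus 5 months on the right; points are the limma estimates, lines their 95% intervals, colours the roles, and filled points have an unadjusted p under 0.05. Most points sit within 0.1 of 0, RDH14 and CYP4V2 are filled on the left, 5 members are filled on the right, and CRABP1 has the widest interval in both.

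ADH5 was the single alcohol dehydrogenase among the members. It is the class of the family that is active in every tissue, where it mainly oxidizes the glutathione adduct of formaldehyde. Its log2 expression at 5 months was 8.96 to 9.48 with a median of 9.23 in controls, and 9.33, 9.39, 9.07, 9.23 and 9.34 in FASD animals. At 2 years it was 9.20 to 9.36 with a median of 9.22 in controls, and 9.34, 9.09, 9.09, 9.08 and 9.31 in FASD animals. The groups overlapped at both ages, and the alcohol difference was -0.01 with a 95% interval of -0.14 to 0.11. The other enzymes known for oxidizing ethanol, among them ADH1A, ADH1B, ADH1C, ADH4, ADH7 and CYP2E1, were not analysed here.

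The ALDH family was the largest sublist beside the CYP family, with 12 probe sets. Of these, 0 were called for alcohol, against 8.44% of all probe sets, and 2 for age, against 9.57%. The alcohol differences of the family ran from -0.09 to 0.07. ALDH2, the mitochondrial enzyme that clears acetaldehyde, had a log2 expression of 10.82 to 11.33 with a median of 10.99 in controls at 5 months, and of 10.77, 11.02, 11.11, 11.30 and 11.15 in FASD animals of that age. At 2 years it was 11.00 to 11.35 with a median of 11.27 in controls, and 11.21, 10.94, 11.17, 11.16 and 10.78 in FASD animals. The groups overlapped at both ages: the 5 FASD animals at 2 years lay at or below 11.21, and 5 of the 6 controls lay above that level. The alcohol difference was -0.09 (95% interval -0.24 to 0.07), -0.18 at 2 years (exact permutation p = 0.0909) and 0.01 at 5 months, and the interaction of -0.20 was not called. Without control animal 2 the difference at 2 years was -0.23 and was called by limma.

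ALDH1A3, which oxidizes retinal to retinoic acid, had the lowest age p value of all members. Its log2 expression in controls was 4.56 to 4.86 with a median of 4.72 at 5 months, and 4.84 to 5.12 with a median of 4.95 at 2 years, so that the ranges shared only the stretch from 4.84 to 4.86. In FASD animals it was 4.69, 4.71, 4.76, 4.92 and 4.82 at 5 months and 4.98, 4.94, 4.91, 4.63 and 5.14 at 2 years. FASD animal 4 at 2 years, at 4.63, was the exception to the higher level at that age. The age difference was 0.20 with a standard error of 0.055 (p = 0.00158, adjusted p = 0.183), and the exact permutation test of animals within exposure gave p = 0.00195 (two-sided). Without FASD animal 4 at 2 years, the lowest of its group, it was 0.23, with an adjusted p of 0.0356 in limma. That is 1 of 22 fits that left out 1 animal, over which the difference ran from 0.17 to 0.23. No such fit had more than 1 member under an adjusted p of 0.05 for age. In controls alone the difference was 0.26 (exact permutation p = 0.00433), against a background of 5.55% of probe sets called in that comparison, and in FASD animals 0.14. The mean level of this probe set was exceeded by all but 5.79% of probe sets in the table, so it is a dim row. ALDH1A1 and ALDH1A2, the other enzymes of this step, were not analysed here.

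ALDH18A1, which makes the precursor of proline from glutamate, had an age difference of 0.10 (SE 0.046, p = 0.0499, adjusted p = 0.521), and the exact permutation test gave p = 0.0184. Its log2 expression in FASD animals at 5 months was 7.88, 8.18, 8.31, 8.20 and 8.20, and the lowest value belonged to animal 2. The controls ran from 8.13 to 8.33 at 5 months and from 8.24 to 8.36 at 2 years, with the FASD animals of 2 years between 8.23 and 8.39. The call was kept in 11 of the 22 fits that left out 1 animal, and without FASD animal 2 at 5 months the age difference was 0.06. ALDH1L2, a mitochondrial folate enzyme, was 0.12 lower at 2 years and missed the threshold (exact permutation p = 0.0717), though it was called by limma in 3 of the 22 fits that left out 1 animal.

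The remaining members of the family are housekeeping or substrate-specific dehydrogenases. ALDH1L1, a folate enzyme known as a marker of astrocytes, had an alcohol difference of -0.04 (95% interval -0.19 to 0.12). ALDH3A2, the fatty aldehyde dehydrogenase, had one of -0.01 (-0.14 to 0.13), and ALDH7A1, an enzyme of lysine breakdown, one of -0.03 (-0.15 to 0.09). ALDH3A1, ALDH6A1 and ALDH8A1 were not called for alcohol or age either. ALDH9A1, which oxidizes aminoaldehydes, has 2 probe sets. In controls the age difference of the dimmer row was -0.27 (exact permutation p = 0.039), and limma called it in 15 of the 22 fits that left out 1 animal, not in the one without control animal 6 at 5 months (-0.21). In controls the brighter row had an age difference of 0.015, and in FASD animals the dimmer row had one of 0.02. Over both exposures the age difference was -0.12 for the dimmer row, which was not called. For the brighter row it was -0.01 (95% interval -0.16 to 0.15). The difference between the rows was not tested.

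Of the enzymes that turn acetate into acetyl-coenzyme A, ACSS1 acts in mitochondria and ACSS2 in the cytosol and nucleus. ACSS1 had a log2 expression in controls of 9.01 to 9.53 with a median of 9.41 at 5 months and of 8.88 to 9.51 with a median of 9.10 at 2 years. In FASD animals it was 8.99, 9.56, 9.74, 9.38 and 9.28 at 5 months and 8.94, 9.11, 9.14, 9.21 and 9.26 at 2 years. Most animals of 2 years lay below most of those of 5 months, with control animal 1 and FASD animal 2 at 5 months as low exceptions and control animal 1 at 2 years as a high one. The age difference of ACSS1 was -0.23 (SE 0.088, p = 0.0170, adjusted p = 0.382), with an exact permutation p of 0.0232, and it was -0.28 without FASD animal 2 at 5 months. Its alcohol difference was 0.00 with an interval of -0.18 to 0.19. ACSS2 had an alcohol difference of 0.09 (95% interval -0.04 to 0.22), which was 0.13 and called by limma without FASD animal 6 at 2 years.

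The 4 aldo-keto reductases reduce aldehydes and ketones of sugars, steroids and toxic lipid products. AKR1C2, a hydroxysteroid dehydrogenase that acts on neurosteroids, had a log2 expression of 6.43 to 6.84 with a median of 6.51 in controls at 5 months, and of 6.56 to 6.78 with a median of 6.65 at 2 years. In FASD animals it was 6.60, 6.55, 6.26, 6.43 and 6.57 at 5 months and 6.82, 6.63, 6.70, 6.49 and 6.76 at 2 years. In controls the older group lay above all younger animals but animal 4, whose 6.84 stood alone, and in FASD animals all but animal 4 at 2 years lay above the younger group. The age difference was 0.16 (SE 0.057, p = 0.0116, adjusted p = 0.346), with an exact permutation p of 0.0107. The AKR1C genes are near-identical in sequence, so probes for one may read its neighbours. AKR7A2, which reduces succinic semialdehyde and other small aldehydes, was 0.18 higher at 2 years in FASD animals (exact permutation p = 0.111). This was 1 of 4 members called by limma in that comparison, all higher, against 6.99% of all probe sets and 4.71% counting only higher ones. The call of AKR7A2 was kept in 15 of the 22 fits that left out 1 animal, and without FASD animal 2 at 5 months the difference was 0.12 and was not called. AKR1A1, the aldehyde reductase of most tissues, had an alcohol difference of -0.01 (95% interval -0.19 to 0.17), and AKR1D1, a bile acid and steroid reductase, one of -0.08.

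The CYP family had 12 probe sets, of which 1 was called for alcohol, 0 for age and 1 for the interaction. The shares of all probe sets called were 8.44%, 9.57% and 3.00%. CYP4V2, a fatty acid hydroxylase linked to a dystrophy of the retina, was lower in FASD animals. Its log2 expression at 5 months was 6.73 to 6.92 with a median of 6.83 in controls, and 6.81, 6.89, 6.48, 6.40 and 6.70 in FASD animals. At 2 years it was 6.63 to 7.02 with a median of 6.85 in controls, and 6.36, 6.83, 6.77, 6.74 and 6.83 in FASD animals. FASD animals 4 and 5 at 5 months and animal 1 at 2 years were the low ones, and the others lay within the range of controls, apart from animal 6 at 5 months just under it. The alcohol difference was -0.16 (SE 0.068, p = 0.0261, adjusted p = 0.579), with an exact permutation p of 0.0248, and it missed the threshold when any 1 of those 3 animals was left out and with arrays centred on their medians (-0.15, p = 0.0503).

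CYP2B6, a drug-metabolizing enzyme of the liver, was called for the interaction. Its log2 expression at 5 months was 3.40 to 3.80 with a median of 3.57 in controls, and 3.52, 3.66, 3.45, 3.30 and 3.26 in FASD animals. At 2 years it was 3.36 to 3.66 with a median of 3.40 in controls, and 3.45, 3.48, 3.73, 3.71 and 3.93 in FASD animals. The FASD values thus lay toward the low end at 5 months and toward the high end at 2 years, with overlap at both. FASD minus control was -0.15 at 5 months and 0.21 at 2 years (exact permutation p = 0.0541). It was the single member called by limma at 2 years, against 6.05% of all probe sets, and was called in 15 of the 22 fits that left out 1 animal. The interaction was 0.36 (SE 0.13) with an adjusted p of 1 in limma, and it was called before adjustment. The mean level of this row was among the lowest 0.73% of all probe sets, and its probe set is one that may match several related transcripts.

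Enzymes of sterol turnover are among the members better known in brain. CYP46A1, the neuronal enzyme that hydroxylates cholesterol for export, had an alcohol difference of 0.07 (95% interval -0.08 to 0.21). CYP51A1, the sterol demethylase of cholesterol synthesis, had a log2 expression at 5 months of 8.99 to 9.56 with a median of 9.18 in controls, and of 8.73, 9.16, 8.95, 8.88 and 8.97 in FASD animals. All FASD animals but animal 3 lay below the 6 controls at that age. The difference at 5 months was -0.31 (SE 0.146, exact permutation p = 0.0368, adjusted p = 0.932). Limma called it in 15 of the 22 fits that left out 1 animal, not in the one without FASD animal 2 (-0.26). Over both ages it was -0.19 (exact permutation p = 0.113), and -0.25 with a call without FASD animal 2 at 2 years. CYP51A1 and RDH14 were the 2 members called at 5 months, both lower, where 4.83% of all probe sets were called and 3.36% were lower. At 2 years CYP51A1 spread from 8.80 to 9.67 among FASD animals, with a difference of -0.06.

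CYP24A1 breaks down active vitamin D. Its alcohol difference was -0.07 (95% interval -0.15 to 0.01, p = 0.0993), while the exact permutation test gave p = 0.0457, so the tests fell on either side of the threshold. CYP4X1, an orphan enzyme described in brain, was 0.37 higher at 2 years than at 5 months in FASD animals (exact permutation p = 0.0952), called by limma. It was called in 15 of the 22 fits that left out 1 animal, and was 0.35 higher with no call without FASD animal 2 at 5 months. The other members of the family, CYP1B1, CYP2C19, CYP2J2, CYP2R1, CYP2U1 and CYP11B2, were not called in any comparison. CYP26A1 and CYP26B1, which clear retinoic acid, were not analysed here.

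RDH14, a reductase that converts retinal to retinol, had the lowest alcohol p value of the 46 members. Its log2 expression at 5 months was 7.39 to 7.77 with a median of 7.63 in controls, and 7.36, 7.47, 7.45, 7.31 and 7.48 in FASD animals. At 2 years it was 7.25 to 7.84 with a median of 7.65 in controls, and 7.50, 7.21, 7.57, 7.48 and 7.44 in FASD animals. At each age 5 of the 6 controls lay above every FASD animal, and 1 control, animal 4 at 5 months and animal 2 at 2 years, lay among them, so the groups overlapped. The alcohol difference was -0.18 (SE 0.062, 95% interval -0.31 to -0.06, p = 0.00711, adjusted p = 0.579), with an exact permutation p of 0.00675 over 213444 arrangements of animals within age. It was -0.19 at 5 months (exact permutation p = 0.0152) and -0.18 at 2 years (exact permutation p = 0.139). The call at 5 months was kept in 16 of the 22 fits that left out 1 animal, and was lost without FASD animal 2 (-0.18), without control animal 6 (-0.19), and with arrays centred on their medians or quantile normalized (-0.16 each). The unadjusted p over both ages stayed under 0.05 in all 22 fits that left out 1 animal, and it ranked 135 of 11512 probe sets.

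**Figure D2:**
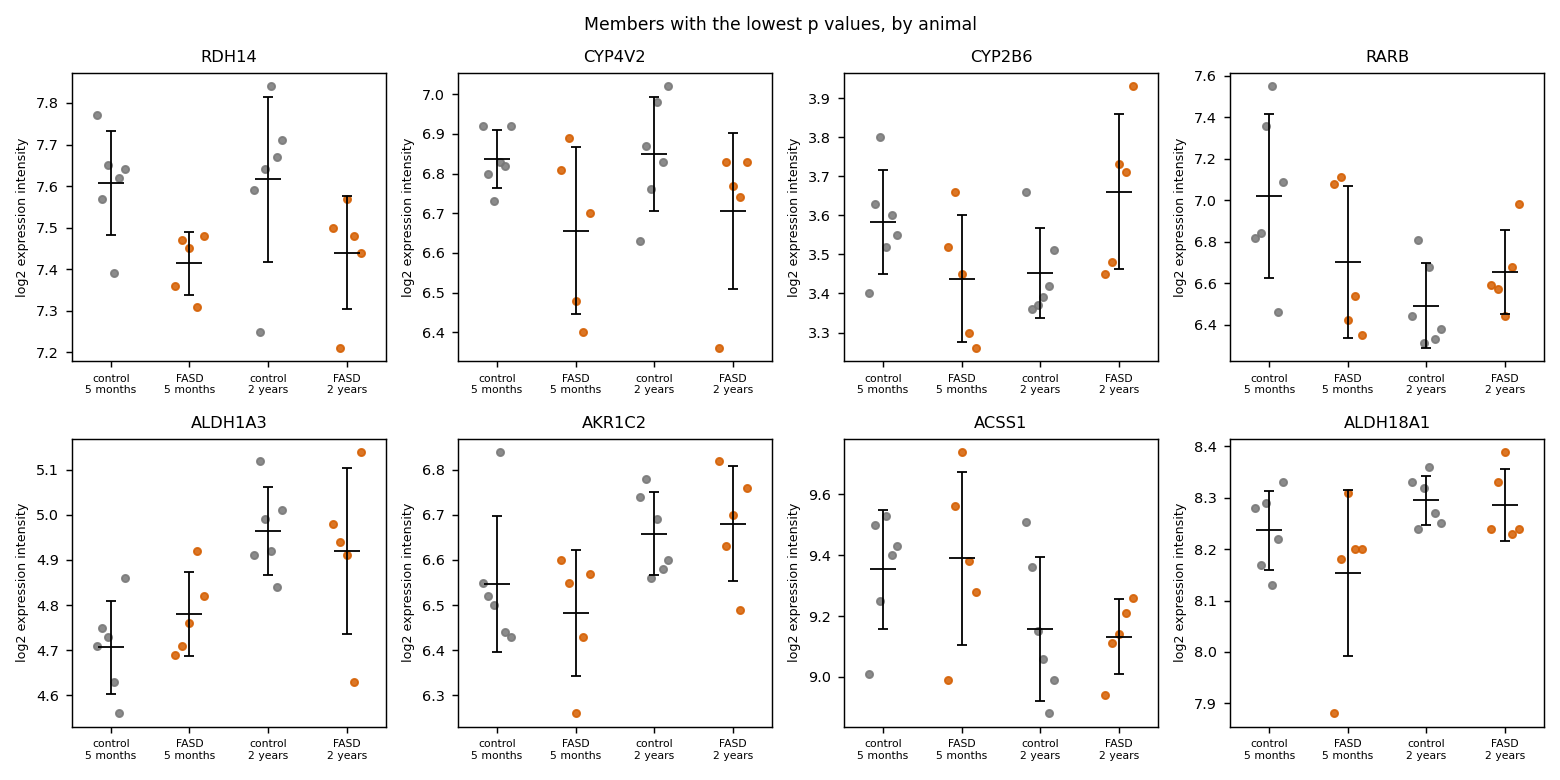
Log2 expression intensity of the 8 members with an unadjusted p under 0.05, by group; dots are animals, and the black bars give the mean ± SD of 6 controls or 5 FASD animals. For RDH14, 5 of 6 controls lie above every FASD animal at each age; for ALDH1A3 the controls of 2 years start at 4.84 and those of 5 months end at 4.86; each axis has its own range.

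The other 7 probe sets of the RDH and DHRS enzymes, a family that interconverts alcohols and ketones of retinoids, steroids and prostaglandins, were called for neither alcohol nor age. RDH10, which makes the retinal needed for retinoic acid in the embryo, had a log2 expression of 6.50 to 7.94 with a median of 6.69 in controls at 5 months, and of 6.34, 7.56, 7.02, 6.86 and 6.72 in FASD animals. At the later age it was 6.50 to 7.16 with a median of 6.92 in controls, and 6.68, 6.40, 6.49, 6.94 and 6.76 in FASD animals. Control animal 6, at 7.94, stood a full unit above the other controls of its age. FASD minus control was -0.11 (95% interval -0.43 to 0.20), and it was -0.01 without that animal. DHRS3, which returns retinal to retinol, was also highest in this animal, at 8.40 against 7.50 to 7.61 in the other controls of 5 months. The alcohol difference of DHRS3 was 0.09 (95% interval -0.10 to 0.29), and without that animal it was 0.16 and was called by limma. At 5 months it was 0.11 with the animal and 0.24, with a call, without it. DHRS1, a membrane enzyme of steroid and xenobiotic reduction, had one of 0.06 (95% interval -0.10 to 0.22), and those of DHRS7, DHRS7B, DHRS11 and DHRS13 ran within the same bounds, from -0.01 to 0.08.

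The 2 animals highest in RDH10 were also the highest in FOLR1, a folate receptor that marks choroid plexus. FOLR1 was 9.56 in control animal 6 at 5 months, 8.98 in FASD animal 3 at 5 months and 8.21 or below in the other 20 animals. FASD animal 3 had the second highest RDH10, at 7.56. Control animal 3 at 2 years, with a DHRS3 of 7.99 and an RDH10 of 7.05, had a FOLR1 of 7.05. The choroid plexus and ependyma list, of which 3 of 8 genes were measured, was 0.85 above its mean in control animal 6. Its other genes were less apart in control animal 6 and FASD animal 3, with AQP1 at 9.69 and 9.52 against a mean of 9.67 and DYNLRB2 at 7.77 and 7.27 against 7.25. By group it ran from -0.34 to 0.85 in controls and -0.25 to 0.43 in FASD animals at 5 months, and from -0.11 to 0.23 in controls and -0.27 to -0.12 in FASD animals at 2 years. The part of this tissue in the values of RDH10 and DHRS3 was not tested.

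Among the retinoid carriers, RBP4 carries retinol in blood, and CRABP1 and CRABP2 bind retinoic acid within cells. CRABP1 was the most variable member, with a residual SD of 0.70 between animals of a group, exceeded by 30 of the 11512 probe sets. Its log2 expression at 5 months was 5.56 to 7.75 with a median of 7.22 in controls, and 7.64, 6.95, 7.46, 7.86 and 6.62 in FASD animals. At the later age it was 6.48 to 8.05 with a median of 7.82 in controls, and 8.01, 7.96, 8.46, 7.44 and 6.68 in FASD animals. From the lowest to the highest animal this is a 7.49-fold range, and each group held both high and low animals. FASD animals were 0.31 higher (95% interval -0.25 to 0.87), and the age difference was 0.50 (-0.05 to 1.06, exact permutation p = 0.0926), both the largest in size of the members. Neither passed the threshold, although limma called the age difference in 4 of the 22 fits that left out 1 animal.

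RBP4 had an age difference of 0.13 (95% interval -0.04 to 0.31) and an alcohol difference of 0.03 (-0.15 to 0.20). CRABP2 had an alcohol difference of 0.08 (-0.13 to 0.28), and of -0.004 without FASD animal 2 at 5 months. At 5 months alone it was 0.03 with that animal and -0.13 without it. FASD animal 2 at 5 months had the highest CRABP2, at 7.39 against 6.52 to 6.63 in the other FASD animals of that age, and FASD animal 6 at 2 years was second, at 7.21. The same 2 animals had the highest COL1A2, a collagen of fibroblasts, at 8.45 and 8.10, and FASD animal 6 at 2 years had the highest CYP1B1, at 7.25. CYP1B1 oxidizes estrogens and retinoids and is known from vessel walls and meninges. For the list of mural, fibroblast and meningeal markers, 5 of 14 genes were measured, and its mean ran from -0.54 to 0.33 in controls and -0.24 to 0.99 in FASD animals at 5 months, and from -0.53 to 0.39 and -0.45 to 0.58 at 2 years. COL1A2 is 1 of these 5. In the same 2 animals DCN was 9.64 and 9.24 (mean 8.35), with control animal 4 at 2 years between them at 9.46. LUM was 7.13 and 6.20 (mean 6.01), and COL3A1 7.72 and 7.71 (mean 7.68). IGFBP2 was 8.77 and 8.45 (mean 7.91) and highest in control animal 6 at 5 months, at 9.10. The part of these cells in the values of CRABP2 and CYP1B1 was not tested. The age difference of CYP1B1 was 0.23 (95% interval -0.07 to 0.53, exact permutation p = 0.187), and 0.11 without FASD animal 6 at 2 years.

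**Figure D3:**
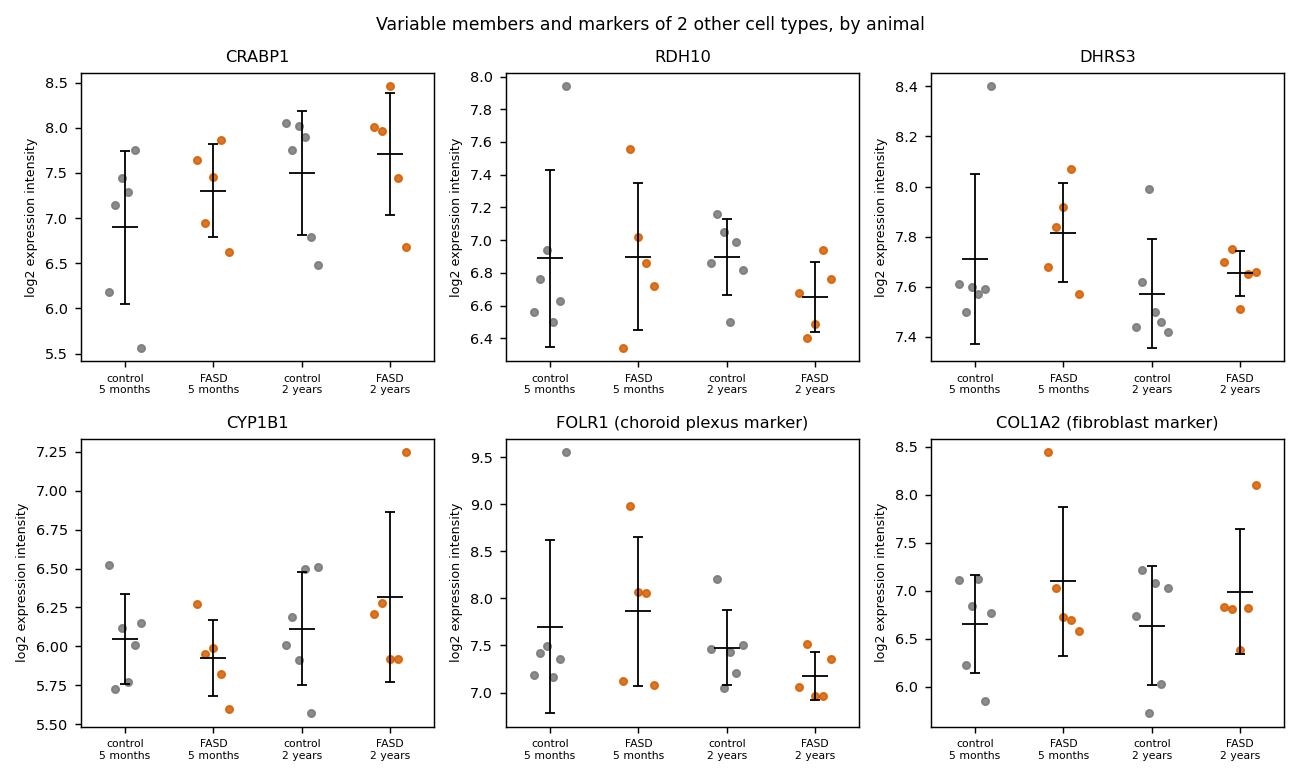
Log2 expression intensity of 4 members and of FOLR1 and COL1A2 by group; dots are animals, and the black bars give the mean ± SD of 6 controls or 5 FASD animals. CRABP1 spreads over each group, control animal 6 at 5 months is the highest for RDH10 (7.94), DHRS3 (8.40) and FOLR1 (9.56), and FASD animal 6 at 2 years is the highest for CYP1B1 (7.25); each axis has its own range.

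Of the receptors, RARA, RARB and RXRB were measured, and RARG, RXRA and RXRG were not analysed here. RARB, itself a gene that retinoic acid induces, had a log2 expression in controls of 6.46 to 7.55 with a median of 6.97 at 5 months and of 6.31 to 6.81 with a median of 6.41 at 2 years. In FASD animals it was 7.08, 7.11, 6.42, 6.54 and 6.35 at 5 months and 6.59, 6.57, 6.44, 6.68 and 6.98 at 2 years. In controls 5 of the 6 younger animals lay above every older one, with animal 5, at 6.46, among them, and in FASD animals the ages overlapped throughout. The age difference of RARB was -0.29 (SE 0.121, p = 0.026, adjusted p = 0.427), with an exact permutation p of 0.0487, and it was -0.24 (p = 0.0595) without FASD animal 2 at 5 months. Its call was kept in 19 of the 22 fits that left out 1 animal, the others being those without control animal 4 or FASD animal 3 at 5 months. In controls it was -0.53 (exact permutation p = 0.0108), and in FASD animals the difference was -0.05. The interaction of 0.48 was not called (SE 0.242, limma). It was called in 7 of the 22 fits that left out 1 animal, among them the one without FASD animal 2 at 5 months (0.58), and the adjusted p over all animals was 1.

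The 2 probe sets of RARA had alcohol differences of 0.00 (95% interval -0.13 to 0.12) for the brighter and 0.05 (-0.06 to 0.16) for the dimmer row. RXRB, the partner with which RAR receptors bind DNA, had an alcohol difference of 0.07 (-0.04 to 0.19) and an age difference of -0.01 (-0.13 to 0.10). The 4 receptor rows had 0 calls for alcohol and 1, RARB, for age, against 8.44% and 9.57% of all probe sets.

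At 5 months and at 2 years the members did not keep 1 direction. The alcohol difference had the same sign at both ages for 20 of the 46 members, 6 lower and 14 higher in FASD animals. The share of all probe sets with the same sign was not counted, so this is not read as particular to the members. For none of the 46 members did the FASD animals and controls of an age separate without overlap, where 0.443% of all probe sets did at 5 months and 0.313% at 2 years. The ages did not separate either for any member in controls or in FASD animals, where 0.434% and 1.31% of all probe sets did. The oligodendrocyte markers, of which 4 of 11 were measured, had list means of 0.05 to 0.61 in FASD animals at 5 months against -0.27 to 0.08 in controls. The 0.61 is that of FASD animal 2, and the next highest was 0.35. Of the 4 genes, 3 were called higher and 1 had a lower value at that age, where 4.83% of all probe sets were called. The limma adjusted p of the 3 was 0.724 for UGT8, 0.839 for MBP and 0.93 for MAL. At 2 years they were -0.37 to 0.07 in FASD animals and -0.31 to 0.21 in controls. The list means of the precursor markers, with 5 of 7 genes measured, did not overlap at 5 months. They were 0.15 to 0.33 in FASD animals and -0.14 to 0.08 in controls. Of the 5 genes 1 was called, GPR17, with a limma adjusted p of 0.93. At 2 years they ran from -0.31 to 0.39 and from -0.57 to 0.11. The part of both lists in the members' differences was not tested.

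**Figure D4:**
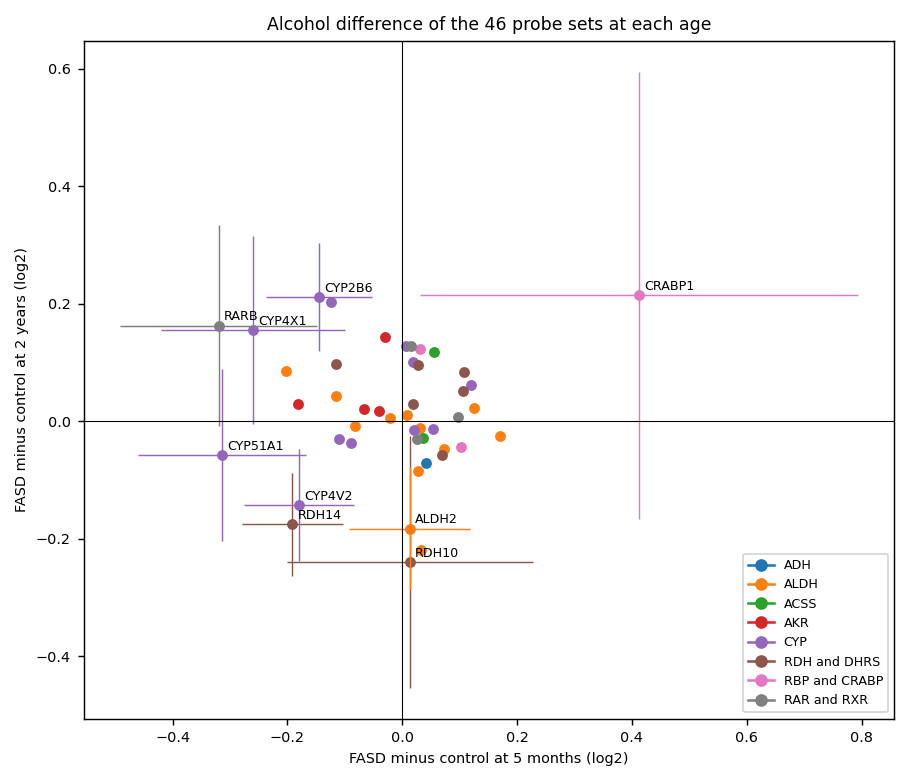
Alcohol difference of each of the 46 probe sets at 5 months (horizontal axis) and at 2 years (vertical axis), in log2 units, coloured by role; for 9 named members the lines give ± 1 SE. RDH14 and CYP4V2 lie in the lower left, CYP2B6 and RARB in the upper left, and 20 of the 46 points have the same sign on both axes.

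Genes that act beside the members were followed as 3 lists, and those named were called at an unadjusted p under 0.05. The retinoid list holds other genes of uptake, storage, transport and response, of which 15 of 33 were measured with 17 probe sets. It had 0 calls for alcohol, against 8.44% of all probe sets, and 2 for age, both higher at 2 years, against 9.57%. For alcohol 14 of its 17 probe sets had a value below 0, with a median of -0.054, where 53.2% of all probe sets did. At 5 months, which is part of that comparison, 14 of 17 did, against 61.0% of all. At 2 years 8 of 17 did, with a median of 0.002. The list mean was lowest in FASD animal 2 at 5 months, at -0.18. At 5 months 1 probe set was called, NR2F1, an orphan receptor related to NR2F2 (-0.16, adjusted p = 0.932). Those called for age were BCO2, which cleaves carotenoids (0.18, adjusted p = 0.485), and NR2F2, an orphan receptor that can oppose retinoid signalling (0.36, adjusted p = 0.366). The list of ethanol and acetate handling had 8 of 17 genes measured, with 2 calls for alcohol and 1 for age. ACO1, the cytosolic aconitase, had an alcohol difference of -0.16 (adjusted p = 0.58), and ACLY, which makes acetyl-coenzyme A from citrate, one of -0.13 (adjusted p = 0.585). SLC16A1, a carrier of lactate, ketone bodies and acetate, had an age difference of -0.53 (adjusted p = 0.25). The list of partners that pass electrons to P450 enzymes or bind them had 13 of 22 genes measured with 16 probe sets, and 3 calls for each. PGRMC1 and CYB5B, a heme-binding partner and a cytochrome, each had an alcohol difference of -0.12 (adjusted p = 0.579 and adjusted p = 0.585), and CYB5R1, a reductase, had one of 0.11 (adjusted p = 0.59). For age, PGRMC2, a relative of PGRMC1, was higher at 2 years in both of its probe sets, by 0.25 (adjusted p = 0.102) and 0.12 (adjusted p = 0.286), and PGRMC1 was higher by 0.11 (adjusted p = 0.476). No gene of the 3 lists passed an adjusted p of 0.05, in limma.

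**Figure D5:**
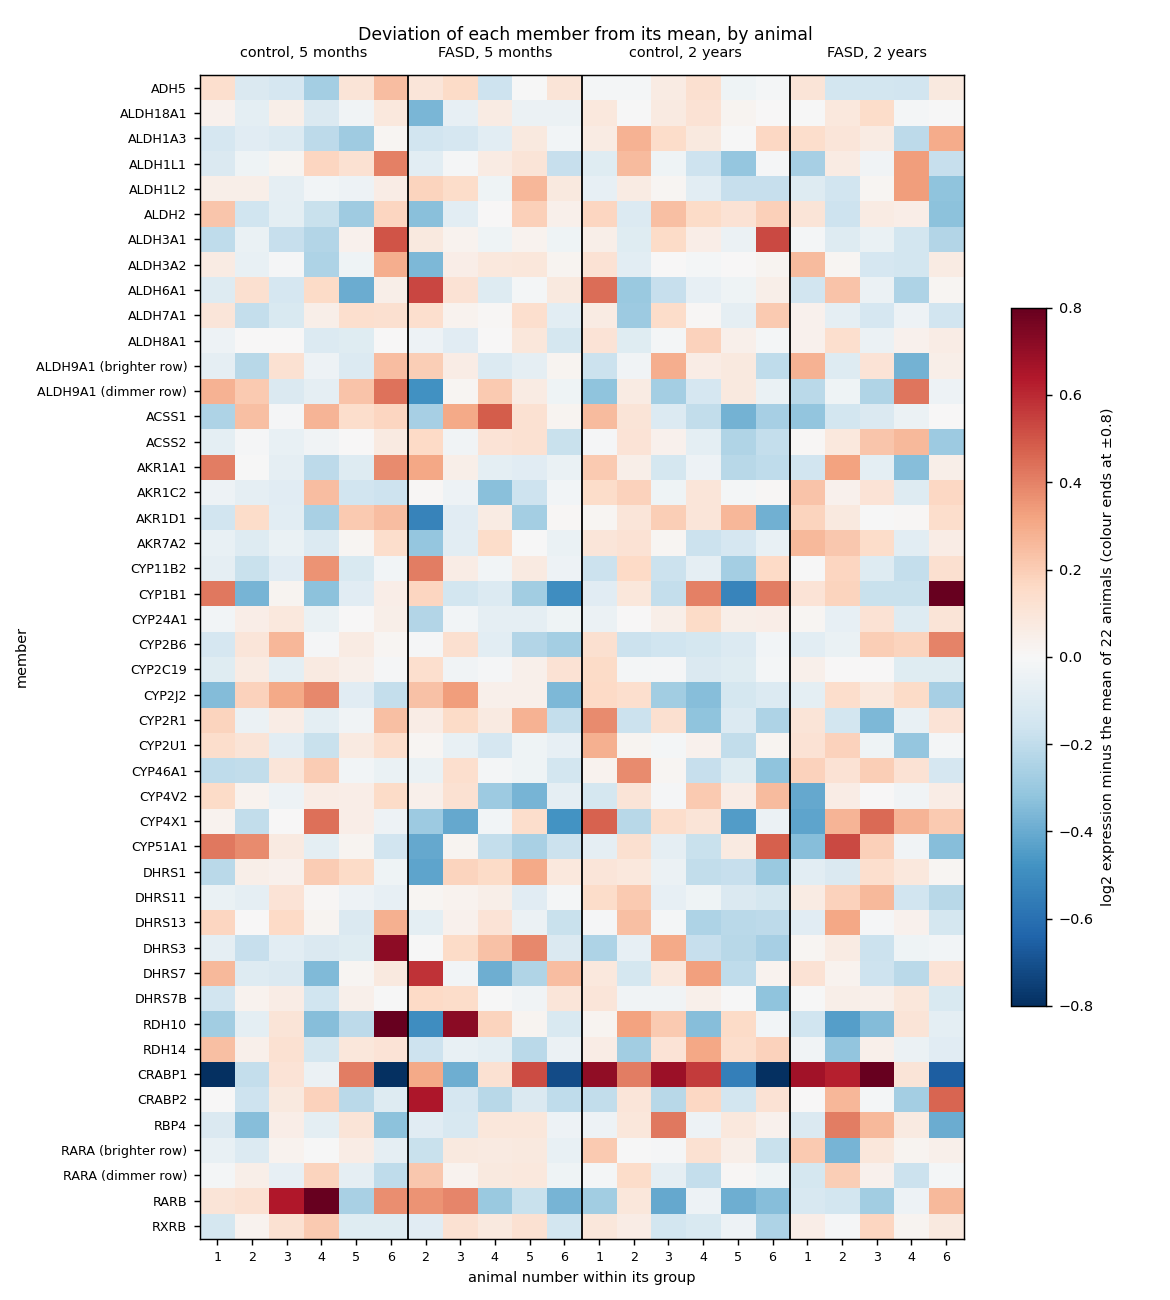
Log2 expression of each member minus its mean over the 22 animals, with members as rows in order of role and animals as columns by group; red is above and blue below the mean, and colours end at 0.8 on either side. CRABP1 is the most variable row, FASD animal 2 at 5 months holds the highest or lowest value of 16 members, and no row changes colour fully between groups.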

How the data were processed

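The authors hybridized labelled RNA to rhesus arrays and deposited log2 expression intensities made by RMA (background correction, quantile normalization and summary of probes), reduced to annotated probe sets above a minimum of detection calls across arrays (software version not given in the sources used here). According to the paper, only the probe set of highest mean was kept for a gene. The platform annotation used here nevertheless gives ALDH9A1 and RARA 2 rows each. Values of 22 arrays were used, and 2 discarded arrays had empty columns. The rule asks for 1 gene symbol in the platform annotation, which 8730 of the 11512 probe sets have, 88 having several and 2694 none. A group-means model was fitted to all rows with limma 3.58.1 (R 4.3.3) and tested on simulated data. Single values were also tested by exact two-sided permutation within age or exposure. The rule reads symbols only, but the gene families it names and the lists were chosen with earlier results of these data known. Named genes are members at p under 0.05, the 5 largest differences, the brightest and most variable row per role, and textbook genes. Labels give no extraction batch, and control animal 6 at 5 months follows its title. The methods' two-way analysis of variance, centring, other normalization, array weights, a filter on level, a replicate block and leaving out each array were alternatives. The number of arrays limits the precision.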

Additional observations from a re-analysis of the deposited data

Results flagged for a closer look

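In each group of 5 or 6 animals a lone highest or lowest value was looked for, as the gap to its nearest neighbour divided by the range of the group. A lone value was found in 17 of 184 groups of members. A nominal rate of 1 in 20 would give 9.2, which is not a count from these data. The groups share the same animals, and the share of lone values over all probe sets is not given. The 17 are therefore not read as an excess. Of them, 4 came from FASD animal 2 at 5 months and 3 from control animal 6 at 5 months. The retinal reductase DHRS3 had a ratio of 0.885 in controls at 5 months (animal 6, 8.40) and of 0.638 in controls at 2 years (animal 3, 7.99). The retinol dehydrogenase RDH10 had 0.69 (control animal 6 at 5 months, 7.94), and ALDH3A1 had 0.632 for the same animal (7.26). In FASD animal 2 at 5 months CRABP2 (7.39) had a ratio of 0.869, ALDH3A2 (7.39) of 0.836, CYP24A1 (9.50) of 0.756 and CYP11B2 (8.11) of 0.747. CYP11B2 also had 0.703 in control animal 4 at 5 months (8.06), where AKR1C2 (6.84) had 0.72. In FASD animals of 2 years the ratio was 0.729 for CYP1B1 (animal 6, 7.25), 0.766 for CYP46A1 (animal 6, lowest at 10.70), 0.8 for CYP4V2 (animal 1, lowest at 6.36) and 0.723 for CYP4X1 (animal 1, lowest at 8.01). In controls of 2 years it was 0.64 for ALDH2 (animal 2, lowest at 11.00), 0.681 for DHRS7B (animal 6, lowest at 6.53) and 0.707 for RBP4 (animal 3, 10.66).

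The alcohol difference of CYP2B6 differed between the ages, with an interaction of 0.36 on the log2 scale (limma, unadjusted p = 0.0119). After Benjamini-Hochberg adjustment over all probe sets p was 1. The row is among the dimmest of the table.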

How the results depend on the processing

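Of the values followed for single members, 563 kept their direction and side of the threshold, 88 lost an unadjusted p under 0.05, 7 gained it, and 0 reversed. These are only a part of the members' values, and over all of them more calls were gained. Without control animal 2 at 2 years, 12 of the 322 differences changed their call. ALDH2, ALDH3A1, CYP46A1 and RDH14 at 2 years were among those that gained one. RDH14 for alcohol, ALDH1A3, AKR1C2 and ACSS1 for age and CYP2B6 for the interaction kept an unadjusted p under 0.05 in every alternative in which their rows were tested. The 2 members called for alcohol became 1 with arrays centred on their medians, 4 with array weights and 0 among the 17 members in rows above the median level. The 5 for age became 1 in those rows, and the 1 for the interaction became 3 with array weights and 0 in those rows. At 5 months the 2 calls became 0 with centring or quantile normalization, 6 with array weights and 1 in those rows. At 2 years the 1 call became 3 with array weights and 0 in those rows. The age calls became 5 with array weights and 0 in those rows for controls (3 before), and 2 in those rows for FASD animals (4 before). The shares of all probe sets called in these alternatives and without single animals are not given here. The counts are therefore not read as particular to the members.

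The paper describes sacrifice of cases and controls in alternation, and the labels do not say whether the replicate numbers follow that order. Of 30 correlations between same-numbered animals, 13 exceeded 0.1, with a range of -0.33 to 0.39. At each age 1 of 5 FASD animals resembled the control of its own number most. Whether the numbers pair the animals cannot be told from these values. With the replicate number as a block, 2 members were called for alcohol, 5 for age and 1 for the interaction. Of all probe sets, 995 were called for alcohol against 972 without the block. The members' age calls in FASD animals fell from 4 to 1. The calls of all probe sets for age and the interaction with the block are not given here, so these counts are not read as particular to the members.

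Leaving out 1 animal gave 1 to 3 calls for alcohol (1 without FASD animal 4 or 5 at 5 months or FASD animal 1 at 2 years) and 3 to 8 for age (8 without FASD animal 4 at 2 years, 3 without control animal 4 or FASD animal 3 at 5 months). The interaction had 1 to 3 calls, 5 months 0 to 5, 2 years 0 to 4, controls 2 to 6 and FASD animals 2 to 6. The shares of all probe sets in these fits are not given, so the counts are not read as particular to the members. Dim rows and cross-species probes limit what small differences can show, and control animal 6 at 5 months has conflicting labels. The title of the discarded FASD array of that age shares its replicate number with FASD animal 2.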
